A study of Mus musculus with 10 samples.

Results

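The genes described were 10 of the 28808 in the deposited tables, namely 8 that the transcription factor NRF2 is known to activate and both subunits of the iron store ferritin. They were Hmox1, Nqo1, Osgin1, Gclc, Gclm, Slc7a11, Txnrd1 and Srxn1, with Fth1 and Ftl1 for ferritin. They were taken by name, and all 10 were listed in all 10 tables. The material was kidney cortex of mice aged 4 weeks, dissociated to single cells and profiled by Drop-seq, a droplet method that tags the RNA of a single cell with the barcode of 1 bead. The control was 1 library of normal kidneys. Injured kidneys gave 1 library for day 1, 1 for day 2, 1 for day 4, and 2 for each of days 7, 11 and 14. For no group do the labels give the kind of injury, strain, sex, genotype or animal, and they do not say whether the 2 libraries of a day came from different animals, so p-values measure the spread between these libraries, which may be technical.

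NRF2, encoded by Nfe2l2, is a transcription factor that KEAP1 holds in the cytoplasm and marks for degradation. Oxidants and electrophiles disable KEAP1, and NRF2 then pairs with small MAF proteins at antioxidant response elements and switches on enzymes that make glutathione, recycle thioredoxin and break down quinones and haem. BACH1 occupies the same elements and represses them until haem displaces it. Ferritin is a shell of heavy (Fth1) and light (Ftl1) chains that stores iron. Its translation is blocked by iron regulatory proteins when iron is scarce, so its mRNA level is only one of the controls on the protein. In the kidney, proximal tubule cells take up filtered iron, haem and haemoglobin, and macrophages take up dying cells and their iron.

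In GRCm38, with GENCODE M21 gene models, the genes lie at Hmox1 (chr8:75093621-75100589, plus strand), Nqo1 (chr8:107388225-107403206, minus strand), Osgin1 (chr8:119434124-119446256, plus strand), Gclc (chr9:77754535-77794485, plus strand) and Gclm (chr3:122245557-122270732, plus strand). The others lie at Slc7a11 (chr3:49892526-50443614, minus strand), Txnrd1 (chr10:82833951-82897712, plus strand), Srxn1 (chr2:152105516-152111376, plus strand), Fth1 (chr19:9980598-9985098, plus strand) and Ftl1 (chr7:45457944-45459884, minus strand). All are protein-coding genes. Promoter windows of 8 of the 10 genes, all but Hmox1 and Gclc, were found in the RefSeq promoter table (GRCm38.p6). Each ran from 250 bases before to 50 bases after a start site. The core of the antioxidant response element, written TGACNNNGC and searched on both strands, was present in windows of 3 of these 8 genes, Gclm, Txnrd1 and Srxn1, which is 3 of their 11 windows (27.3%). It was present in 12.4% of the 32851 windows of all genes (4071). Sequence beyond the windows was not searched, so the other members cannot be said to lack the element. The sequences around these matches are shown because they carry the element through which NRF2 is known to act, with the match in capitals. All 3 matches lie on the strand opposite to the gene, and a match is a description of letters, not a bound site.
Gclm, chr3:122245378-122245476, plus strand, match starting at position -134 from the start site: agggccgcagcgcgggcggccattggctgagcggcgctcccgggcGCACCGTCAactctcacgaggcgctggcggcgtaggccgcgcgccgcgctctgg
Txnrd1, chr10:82859069-82859167, plus strand, match starting at position -92 from the start site: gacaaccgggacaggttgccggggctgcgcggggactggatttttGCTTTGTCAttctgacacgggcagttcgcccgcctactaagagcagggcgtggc
Srxn1, chr2:152105542-152105570, plus strand, match starting at position 29 from the start site: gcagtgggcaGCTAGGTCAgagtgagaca

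Of 64803 barcodes, 52797 were kept as cells, 3568 to 6941 per library. Cells were sorted into classes by their raw counts of unique molecular identifiers (UMIs) over marker genes. Tubular cells were 42936 in all, 1979 to 6506 per library, and immune cells were 4555, from 47 to 1879 per library. The classes were checked on genes that the gate did not use. Kap and Gpx3, 2 genes of the proximal tubule, together took 42481 CPM (UMIs per 1000000 of a library and class, on the TMM scale described below) of the control's tubular cells and 4741 CPM of its immune cells. C1qa, C1qb, C1qc, Lyz2, Cd74, S100a8 and S100a9 together took 7.48 CPM of the control's tubular cells and 10228 CPM of its immune cells. On day 7 these 7 myeloid genes reached 635 to 898 CPM in tubular cells, with none of the 7 at 0. Proximal cells made up 70.1% of the tubular cells of the control, 36.8% and 40.2% on day 7, and 78.6% to 82.5% in the libraries of days 11 and 14. The mitochondrial share of tubular UMIs was 24.1% in the control and 4.66% at its lowest, on day 7. Because so much of the RNA differed, levels are given as CPM after trimmed-mean (TMM) scaling, which sets the bulk of genes equal between libraries. Plain library totals raised the median gene of tubular cells by 0.78 on the log2 scale on day 7 against the control. On the same totals the shift of the median gene was -0.77 for day 11 and -0.86 for day 14, each against day 7, so changes are read relative to the bulk of genes, and the directions that depend on this are named.

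In the first 4 days after injury, the tubular level of Hmox1, the enzyme that splits haem into iron, biliverdin and carbon monoxide, was above that of the control. It was 9.64 CPM (8.42 to 11) in the control, 16.0 (13.5 to 18.8) at day 1, 15.4 (13.5 to 17.5) at day 2 and 21.8 (19.9 to 23.8) at day 4 (exact 95% Poisson intervals, counting error only), which is 1.66, 1.60 and 2.26 times the control. Srxn1, which reduces overoxidised peroxiredoxins, was 21.1 CPM (19.3 to 23.1) in the control, 59.2 (54.3 to 64.4) at day 1, 25.5 (23.0 to 28.1) at day 2 and 33.6 (31.3 to 36.0) at day 4. Its level was 2.80, 1.21 and 1.59 times the control and highest on day 1. Slc7a11 is the cystine carrier that feeds glutathione synthesis, and its tubular counts were low. It was 0.303 CPM (0.122 to 0.624) in the control, 1.99 (1.18 to 3.14) at day 1, 1.32 (0.806 to 2.04) at day 2 and 1.59 (1.12 to 2.2) at day 4, or 6.57, 4.36 and 5.26 times the control. The control value rests on 7 UMIs, and a stretch of the longest annotated Slc7a11 transcript is at least 95% identical to Tuba1a, Tuba1b and Tuba1c, so its counts are uncertain. Both ferritin chains were also above the control. Fth1, the iron-oxidising heavy chain, was 4571 CPM (4543 to 4598) in the control, 6399 (6347 to 6451) at day 1, 6231 (6191 to 6270.4) at day 2 and 7501 (7466 to 7537) at day 4, or 1.40, 1.36 and 1.64 times the control. Ftl1, the light chain, was 609.7 CPM (599.6 to 619.8) in the control, 876 (857 to 896) at day 1, 848 (834 to 863) at day 2 and 654 (644 to 665) at day 4, or 1.44, 1.39 and 1.07 times the control. The 7 myeloid genes took 7.48 CPM of the tubular cells in the control and 271, 221 and 492 CPM on days 1, 2 and 4, and haemoglobin mRNA (Hba-a1, Hba-a2, Hbb-bs and Hbb-bt) took 22.4 CPM in the control and 1674, 99.5 and 477 CPM. The part of either in the Hmox1, Slc7a11 and ferritin levels was not tested.

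Osgin1, an oxidative stress induced growth inhibitor, was the member farthest below the control in each of these 3 libraries. It was 73.0 CPM (69.5 to 76.5) in the control, 20.8 (17.9 to 23.9) at day 1, 25.7 (23.2 to 28.3) at day 2 and 24.6 (22.6 to 26.7) at day 4, or 0.285, 0.352 and 0.337 times the control. Proximal cells made up 70.1% of the tubular cells in the control, 43.4% at day 1, 73.7% at day 2 and 72.4% at day 4, and Kap and Gpx3 together took 42481 CPM in the control and 6511, 13874 and 17097 CPM on these days. Within proximal cells alone Osgin1 was 136 CPM in the control and 30.9, 35.9 and 31.8 CPM, so it was below the control there too. Together, Kap and Gpx3 were 79530 CPM in the proximal cells of the control and 11457, 20966 and 24297 CPM on these days, and their part in the result was not tested. These sums do not show how each of the 2 genes changed. Gclc, the catalytic subunit of glutamate-cysteine ligase, which makes the first step of glutathione synthesis, was 159 CPM (154 to 165) in the control, 97.2 (90.9 to 104) at day 1, 61.6 (57.7 to 65.7) at day 2 and 91.3 (87.5 to 95.3) at day 4, or 0.610, 0.387 and 0.573 times the control. Its partner Gclm, the modifier subunit, was 1.04, 0.888 and 1.42 times the control, with 359 CPM there. The quinone reductase Nqo1 was 0.683, 0.505 and 0.840 times the control, and Txnrd1, the cytosolic thioredoxin reductase, 0.944, 0.595 and 0.701 times. So some members lay above and others below the control in the same library. At least 1.5-fold above the control were 3 of 10 members on day 1, 2 on day 2 and 4 on day 4, against 28.4%, 25.8% and 25.6% of all 16339 genes. At least 1.5-fold below it were 2, 4 and 2 members, against 25%, 21.7% and 26.2% of genes. Each of these days has 1 library, so there is no replicate check and no test. On plain library totals 5, 5 and 6 members were at least 1.5-fold above the control (all genes 46.0%, 41.2% and 45.3%) and 1, 3 and 1 below (12.8%, 11.3% and 12.4%), and Txnrd1 on day 1, Gclm on day 2 and Nqo1 on day 4 changed side of the control level (1.33, 1.17 and 1.20 times).

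**Figure D1:**
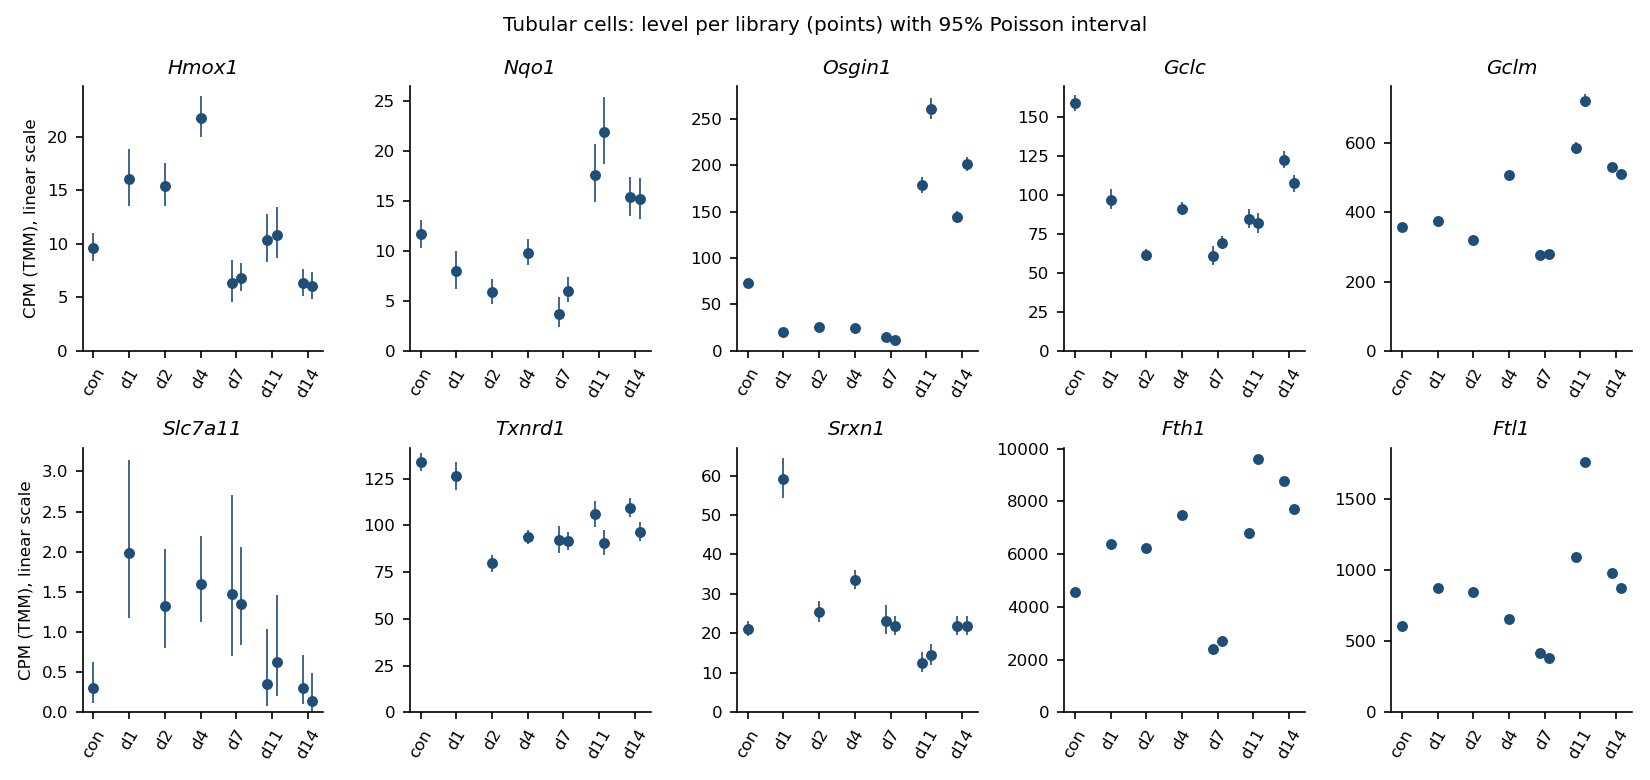
Level of each of the 10 genes in tubular cells, as TMM-scaled CPM on linear axes, against the group (con, control; d1 to d14, days after injury). Each point is 1 library, bars are exact 95% Poisson intervals, and day 7, 11 and 14 have 2 points each. Osgin1 lies under 30 CPM in all 5 libraries of days 1 to 7 and above 140 CPM in the 4 libraries of days 11 and 14, and Fth1 and Ftl1 are lowest in both day 7 libraries on this scale.

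On day 7 the tubular level of several members was below that of the control, and Osgin1, Gclc, Nqo1 and Fth1 fell while Slc7a11 rose. Tested with the quasi-likelihood F test of edgeR, with p adjusted by Benjamini and Hochberg over 16521 genes and a threshold of 0.05, 5 of 10 members changed, against 34.0% of all genes tested. Of these, 1 was higher (all genes 16.1%) and 4 were lower (all genes 17.8%). Osgin1 was 73.0 CPM in the control and 14.8 and 11.8 at day 7, a log2 change of -2.47 ± 0.28, adjusted p = 0.00013 (± SE, edgeR). Gclc was 159 CPM in the control and 61.0 and 69.3 at day 7 (-1.29 ± 0.19, adjusted p = 0.000569, edgeR). Nqo1 was 11.6 CPM in the control and 3.67 and 6.02 at day 7 (-1.20 ± 0.28, adjusted p = 0.00846, edgeR). In all 3 genes both day 7 libraries lay below the control. Fth1 was 4571 CPM in the control and 2416 and 2722 at day 7 (-0.83 ± 0.25, adjusted p = 0.025, edgeR). Ftl1 was 609.7 CPM in the control and 415 and 384 at day 7 (-0.61 ± 0.27, adjusted p = 0.106, edgeR), which did not pass, though it did without the first (adjusted p = 0.0412, edgeR) or second (adjusted p = 0.0425, edgeR) day 11 library. Slc7a11 was 0.303 CPM in the control and 1.47 and 1.34 at day 7 (2.17 ± 0.69, adjusted p = 0.0336, edgeR), on 7 and 31 UMIs. The other 4 did not pass, namely Hmox1 (-0.55 ± 0.23), Gclm (-0.36 ± 0.21), Txnrd1 (-0.54 ± 0.20) and Srxn1 (0.09 ± 0.20). The control is 1 library and was assumed to vary like the replicated days. The 7 myeloid genes rose in tubular cells from 7.48 CPM in the control to 898 and 635 CPM at day 7. Slc7a11 was higher in immune than in tubular cells. The part of free immune RNA in its tubular level was not tested on any day.

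On plain library totals Osgin1, Gclc and Slc7a11 still passed, Fth1 (-0.05, adjusted p = 0.857, edgeR) and Nqo1 (-0.43, adjusted p = 0.212, edgeR) did not, and the values of Hmox1, Gclm, Txnrd1 and Ftl1 turned positive (0.23, 0.42, 0.24 and 0.17). Srxn1 then passed as higher (0.87, adjusted p = 0.00625, edgeR), so that the split was 2 higher and 2 lower, against 47.1% and 6.81% of all genes. Without the first day 7 library the call was lost for Fth1 (-0.74, adjusted p = 0.0876, edgeR) and Slc7a11 (2.12, adjusted p = 0.0553, edgeR). Slc7a11 also lost it without the second day 7 library (2.25, adjusted p = 0.0674, edgeR) and with DESeq2 (2.2, adjusted p = 0.208). Since fewer tubular cells were gated as proximal on day 7, the comparison was repeated in these cells alone. Of 10 members 8 passed, against 40.5% of 15129 genes (19.8% higher and 20.7% lower). The gate counts proximal genes, so a proximal cell that had lost them was not included. Tubular cells assigned to no segment were 25 of 5501 in the control and 220 of 1979 and 169 of 2547 on day 7. The part of this selection in the proximal values was not tested. In proximal cells Gclc was 226 CPM in the control and 39.4 and 44.5 at day 7 (-2.37 ± 0.21), a larger difference than in all tubular cells. Osgin1 was 136 CPM in the control and 22.3 and 20.7 at day 7 (-2.63 ± 0.26). Fth1 (-0.76 ± 0.24), Ftl1 (-0.78 ± 0.26), Nqo1 (-1.96 ± 0.40) and Txnrd1 (-1.21 ± 0.21) fell in proximal cells, and Slc7a11 (3.13 ± 0.96) and Srxn1 (0.64 ± 0.23) rose. Kap and Gpx3 moved with these results. Their summed level was 42481 CPM in the control, 2119 and 3618 CPM on day 7, 49055 and 58270.2 CPM on day 11 and 64641 and 56003 CPM on day 14 in tubular cells, and 79530 CPM in the control, 5151 and 8391 CPM on day 7 and 71135 to 82981 CPM on days 11 and 14 in proximal cells. Like Osgin1, Fth1 and Ftl1 they were lowest in both day 7 libraries on this scale, and their part in the results was not tested. In proximal cells the 7 myeloid genes took 12.3 CPM in the control and 1246 and 1175 CPM on day 7. Their part in the Slc7a11 rise there was not tested.

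Between day 7 and day 11 most members rose in tubular cells, and Osgin1 rose most. Of 10 members 7 changed, 6 higher and 1 lower, against 43.9% of all genes (23.0% higher and 20.9% lower). Osgin1 was 14.8 and 11.8 CPM at day 7 and 179 and 261 at day 11 (4.06 ± 0.27, adjusted p = 5.90e-06, edgeR), and these pairs of libraries were without overlap. Both ferritin chains rose. Fth1 was 2416 and 2722 CPM at day 7 and 6799 and 9610.2 at day 11 (1.68 ± 0.21, adjusted p = 0.000157, edgeR). Ftl1 was 415 and 384 CPM at day 7 and 1093 and 1761 at day 11 (1.84 ± 0.23, adjusted p = 0.000148, edgeR). The 2 day 11 libraries differed, the second being higher in both chains, yet both lay above both day 7 libraries. Nqo1 was 3.67 and 6.02 CPM at day 7 and 17.6 and 21.8 at day 11 (1.96 ± 0.25, adjusted p = 0.000166, edgeR). Gclm was 277 and 280.1 CPM at day 7 and 586 and 722 at day 11 (1.23 ± 0.17, adjusted p = 0.000305, edgeR). Hmox1 rose by a smaller amount (0.68 ± 0.20, adjusted p = 0.0188, edgeR), and Srxn1 fell (-0.73 ± 0.18, adjusted p = 0.00754, edgeR). The stress genes Fos, Jun, Egr1, Hspa1a and Hspa1b together took 1462 CPM of the tubular cells in the control, 1429 to 1766 on days 1 to 4, 2270.1 and 2687 at day 7, 2895 and 2904 at day 11, and 1702 and 2011 at day 14. Like Nqo1, Gclm and Ftl1 they were highest in both day 11 libraries, and haemoglobin mRNA was 774 and 14.3 CPM at day 7 and 2754 and 1301 at day 11. The part of either in these results was not tested. The 5 rises of Osgin1, Fth1, Ftl1, Nqo1 and Gclm passed in each of the 17 alternatives run. That of Hmox1 passed in 8 of 17, with -0.09 (adjusted p = 0.717, edgeR) on plain totals, 0.29 (adjusted p = 0.317, edgeR) in proximal cells alone, 0.64 (adjusted p = 0.0522, edgeR) without the first day 7 library, 0.72 (adjusted p = 0.0531, edgeR) without the first and 0.65 (adjusted p = 0.0865, edgeR) without the second day 11 library. The fall of Srxn1 lost its call without the first day 11 library (-0.64, adjusted p = 0.0562, edgeR). Gclc and Txnrd1 did not pass in all tubular cells (0.35 ± 0.16 and 0.10 ± 0.16), but rose in proximal cells alone (1.04 ± 0.18 and 0.56 ± 0.18) and fell on plain totals (-0.42 ± 0.16 and -0.68 ± 0.16), where 5 members were called higher and 4 lower (all genes 9.79% and 52.0%).

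On day 14 the tubular levels of 7 members again differed from day 7, 6 higher and 1 lower, against 46.0% of all genes (24.3% and 21.7%). Levels were 145 and 202 CPM at day 14 for Osgin1 (3.72 ± 0.26, adjusted p = 3.39e-06, edgeR), 8772 and 7719.7 CPM at day 14 for Fth1 (1.68 ± 0.21, adjusted p = 0.000119, edgeR) and 976 and 876 CPM at day 14 for Ftl1 (1.21 ± 0.23, adjusted p = 0.00151, edgeR). Nqo1 (1.59 ± 0.25, adjusted p = 0.000456), Gclc (0.82 ± 0.16, adjusted p = 0.00213) and Gclm (0.90 ± 0.17, adjusted p = 0.00171) rose as well, by the same edgeR test, and Slc7a11 fell (-2.58 ± 0.61, adjusted p = 0.00609). On plain totals Gclc was -0.04 (adjusted p = 0.811, edgeR), Gclm 0.04 (adjusted p = 0.840, edgeR) and Ftl1 0.35 (adjusted p = 0.172, edgeR), while the other 4 kept their calls. Hmox1, Srxn1 and Txnrd1 then passed as lower, so that 3 members were higher and 4 lower (all genes 9.52% and 57.0%). In proximal cells alone 7 members were higher and 2 lower (all genes 21.8% and 22.7%). There Txnrd1 (0.52 ± 0.18) passed as higher and Hmox1 (-0.67 ± 0.22) as lower in addition. The fall of Slc7a11 was lost without the second day 14 library (-2.16, adjusted p = 0.0515, edgeR). Days 11 and 14 differed from one another in 2 members, 1 lower and 1 higher, against 12.7% of all genes (6.23% lower and 6.49% higher). Hmox1 was 10.3 and 10.9 CPM at day 11 and 6.32 and 6.01 at day 14 (-0.78 ± 0.20, adjusted p = 0.0288, edgeR), and Srxn1 was 12.6 and 14.5 CPM at day 11 and 21.9 and 21.9 at day 14 (0.70 ± 0.18, adjusted p = 0.0299, edgeR). With any 1 of the 4 libraries of days 11 and 14 left out, the adjusted p of Hmox1 was 0.0945, 0.138, 0.138 and 0.164 and that of Srxn1 0.160, 0.0944, 0.156 and 0.156, in the order of day 11 and then day 14 and by the edgeR test. Ftl1 passed as lower on day 14 without the first day 11 library (-0.93, adjusted p = 0.0291, edgeR), and Gclc as higher without the first (0.46, adjusted p = 0.0417, edgeR) or second (0.47, adjusted p = 0.0399, edgeR) day 7 library.

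Against the control, day 11 and day 14 left Osgin1 above its starting level. On day 11, 4 of 10 members differed from the control, 3 higher and 1 lower, against 17.9% of genes (8.81% and 9.07%). Osgin1 (1.59 ± 0.30, adjusted p = 0.00827), Ftl1 (1.23 ± 0.29, adjusted p = 0.0193) and Gclm (0.87 ± 0.22, adjusted p = 0.0241) were higher, and Gclc (-0.94 ± 0.19, adjusted p = 0.0109) was lower, by edgeR's test. Fth1 (0.84 ± 0.26, adjusted p = 0.0504, edgeR) did not pass, but it passed in 8 of 16 alternatives. Plain totals were 1 of these (0.85, adjusted p = 0.0361, edgeR), with 4 members higher and 1 lower there (all genes 9.42% and 8.79%), and DESeq2 another (adjusted p = 0.0121), as was the fit without the first day 11 library (1.07, adjusted p = 0.0200, edgeR), while without the second it was 0.58 (adjusted p = 0.15, edgeR). Without the second day 11 library Osgin1 was the only one of the 4 to pass, with 0.84 (adjusted p = 0.0707, edgeR) for Ftl1, 0.71 (adjusted p = 0.106, edgeR) for Gclm and -0.91 (adjusted p = 0.0674, edgeR) for Gclc. Gclm also missed the threshold without the first (0.87, adjusted p = 0.0602, edgeR) or second (0.87, adjusted p = 0.0603, edgeR) day 14 library and in proximal cells alone (0.56, adjusted p = 0.0842, edgeR). With the first or the second day 7 library left out 7 members passed, with Fth1 and Nqo1 as higher and Srxn1 as lower in addition. The share of all genes called was then 26.1% and 25.8%. On day 14 Osgin1 was the 1 member that differed from the control (1.25 ± 0.29, adjusted p = 0.0345, edgeR, beside a share over all genes of 7.64% called and 4.35% higher), and its call was lost without the second day 14 library (0.99, adjusted p = 0.162, edgeR) and in proximal cells alone (0.68, adjusted p = 0.129, edgeR). Without the first or the second day 11 library Fth1 passed too (adjusted p = 0.0392 and 0.0393, edgeR), as with DESeq2 (adjusted p = 0.0316) and with no filter on low counts (adjusted p = 0.0122, edgeR). With only the control and day 14 libraries in the fit 6 of 9 members passed, against 25.2% of 14743 genes, namely Osgin1, Fth1, Ftl1 and Gclm as higher and Gclc and Txnrd1 as lower. In proximal cells alone Gclc (-1.01 ± 0.20) and Hmox1 (-1.22 ± 0.23) were below the control on day 14. Comparisons that share the day 7 or the control libraries are not independent of each other.

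**Figure D2:**
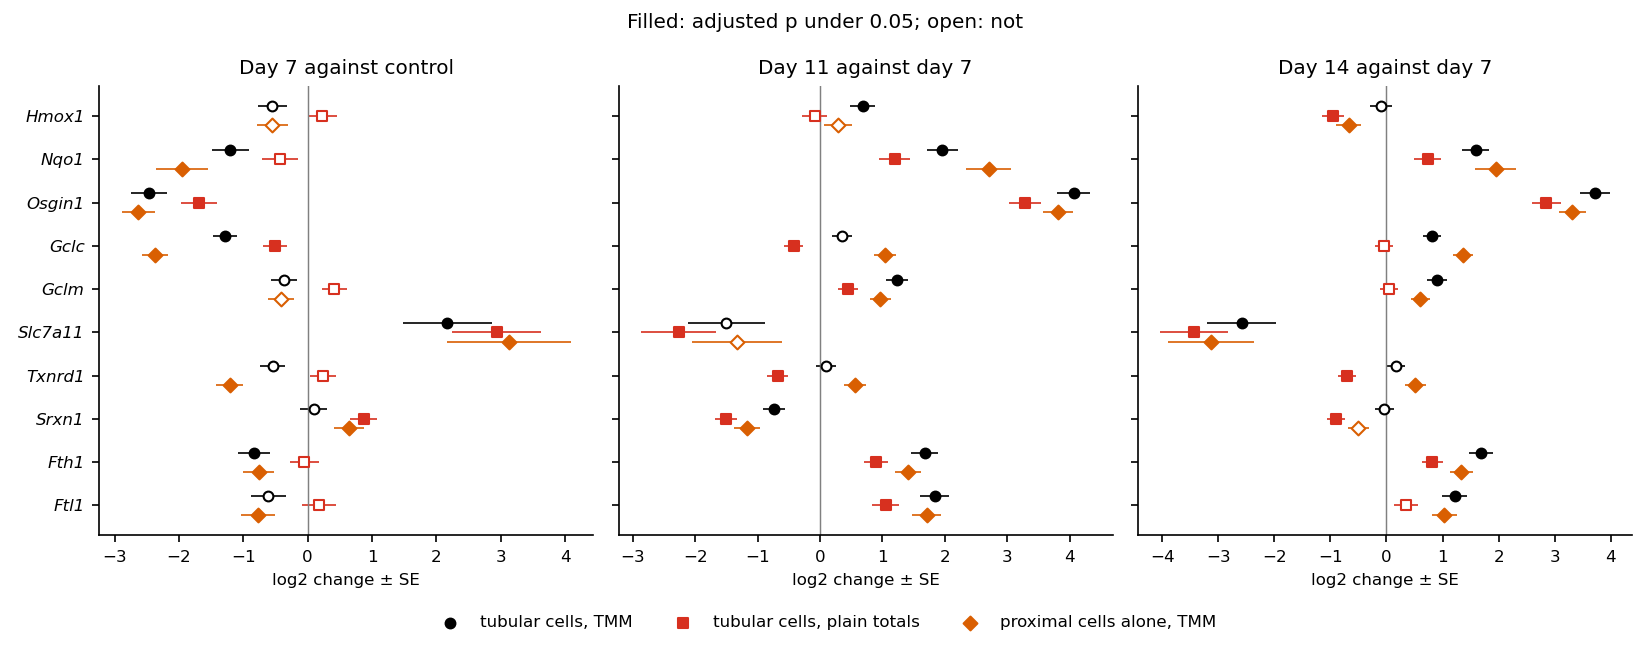
Log2 change with its SE for each gene in 3 comparisons of days, in all tubular cells with TMM scaling (black circles), all tubular cells with plain totals (red squares) and proximal cells alone with TMM scaling (orange diamonds). Filled symbols passed the adjusted threshold of 0.05. Osgin1 stands at 4.06 for day 11 against day 7, and plain totals lie to the right of TMM values in the first panel and to the left in the others.

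Within each library, cells of the proximal tubule held more ferritin, Hmox1, Gclm and Osgin1 mRNA than cells of the loop of Henle, distal tubule and collecting duct. The 2 classes were compared pair by pair in the 10 libraries on a shared TMM scale, and 5 of 10 members were lower in the loop, distal and collecting duct cells, against 33.1% of 14403 genes lower and 62.6% called in either direction. Fth1 was 6687 CPM in the control, 8924 at day 1, 8988 at day 2, 9342 at day 4, 3734 and 3831 at day 7, 9110.3 and 12352 at day 11, and 10859 and 9517 at day 14 in proximal cells. In the other segments it was 2949 CPM in the control, 4477 at day 1, 2141 at day 2, 3323 at day 4, 1773 and 2079 at day 7, 3774 and 4576 at day 11, and 4097 and 3588 at day 14. It was lower there in 10 of 10 libraries (-1.32 ± 0.11, adjusted p = 3.42e-07, edgeR). Osgin1 was 148 CPM in the control, 33.7 at day 1, 38.3 at day 2, 31.6 at day 4, 24.5 and 21.7 at day 7, 297 and 388 at day 11, and 204 and 284 at day 14 in proximal cells. In the other segments it ran from 3.33 to 12.3 CPM (-3.66 ± 0.55, adjusted p = 7.28e-05, edgeR), and the 2 ranges did not overlap. Hmox1 was 17.0 CPM in the control, 30.8 at day 1, 21.9 at day 2, 28.6 at day 4, 10.9 and 11.2 at day 7, 15.2 and 13.9 at day 11, and 7.51 and 7.45 at day 14 in proximal cells and 2.69 to 6.12 CPM in the others (-1.91 ± 0.20, adjusted p = 3.01e-06, edgeR). Ftl1 (-1.58 ± 0.15, adjusted p = 1.23e-06, edgeR) and Gclm (-0.96 ± 0.09, adjusted p = 1.08e-06, edgeR) were also lower in the other segments in 10 of 10 libraries. These 5 calls held in each of the 17 alternatives. Gclc (-0.15 ± 0.21), Txnrd1 (-0.22 ± 0.15), Nqo1 (-0.58 ± 0.26), Srxn1 (0.32 ± 0.18) and Slc7a11 (-0.49 ± 0.44) did not pass. The sign of Gclc and Txnrd1 turned on plain totals (0.08 and 0.02). For Gclc the order of the segments was not the same in all libraries. In proximal cells it was 245 CPM in the control, 86.8 at day 1, 61.8 at day 2, 95.1 at day 4, 43.3 and 46.7 at day 7, 106 and 92.3 at day 11, and 132 and 118 at day 14, and in the other segments it lay between 57.4 and 113 CPM. Nqo1 passed as lower without the first (-0.69, adjusted p = 0.0221, edgeR) or second (-0.70, adjusted p = 0.0308, edgeR) day 7 library or the second day 14 library (-0.68, adjusted p = 0.0483, edgeR), and Srxn1 as higher without day 1 (0.47, adjusted p = 0.0273, edgeR) and on plain totals (0.56, adjusted p = 0.0395, edgeR).

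**Figure D3:**
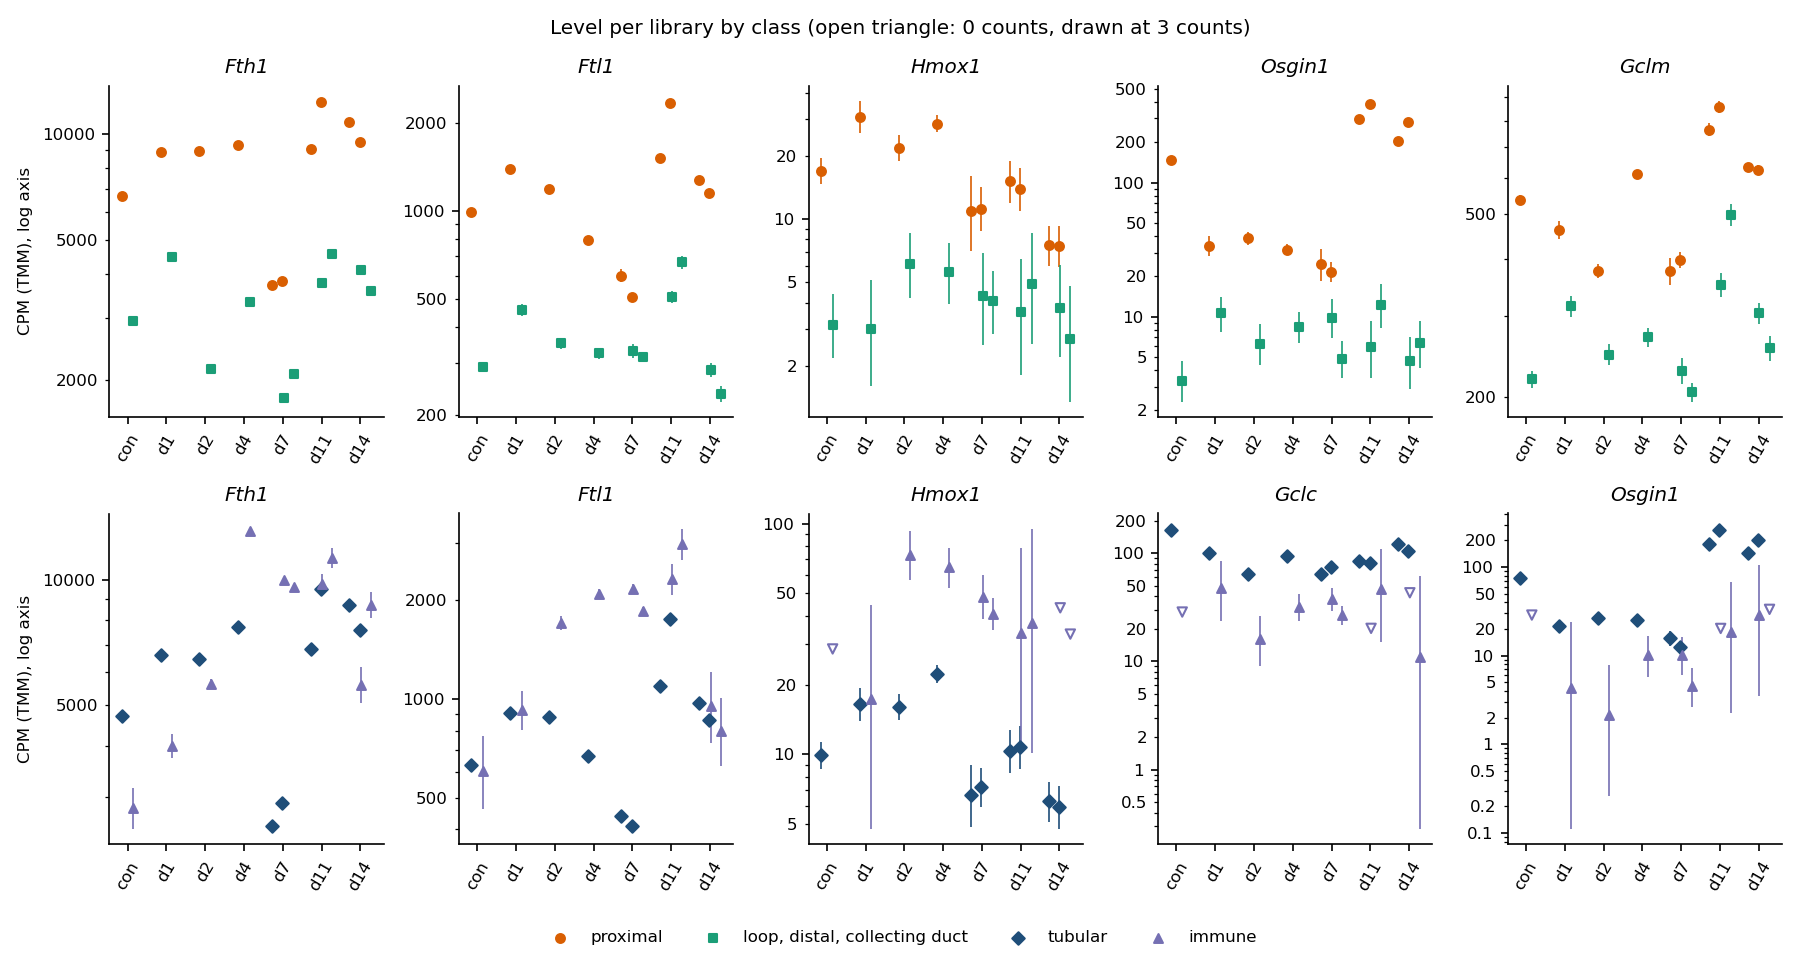
Level per library on a log axis (CPM, TMM scale shared by the 2 classes of a row) against the group. The top row sets proximal cells (circles) beside loop, distal and collecting duct cells (squares), the bottom row tubular cells (diamonds) beside immune cells (triangles). Bars are exact 95% Poisson intervals, and open triangles mark 0 counts, drawn at the level of 3 counts. In the top row each circle lies above the square of its library.

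Tubular cells with at least 1 UMI of Havcr1, which encodes the injury marker KIM-1, were 5675 of the 42936 tubular cells, and from 27 to 2553 per library. Gclm and Fth1 were higher in them than in the other tubular cells of their library, and 8 members did not pass, against 28.4% of 13992 genes called (9.36% higher and 19.1% lower). Gclm was higher in 10 of 10 libraries (0.48 ± 0.08, adjusted p = 0.000338, edgeR). Fth1 was higher in 8 of 10 (0.33 ± 0.09, adjusted p = 0.00994, edgeR). Hmox1 was at 0.61 ± 0.23, adjusted p = 0.0540 by the same edgeR test. Havcr1-positive cells were also deeper, with a median of 2230.0 UMIs against 1689.5 on day 4 and 8184 against 2859.5 in the control, and the part of depth in the result was not tested. More of them were proximal, 480 of 680 and 574 of 713 on day 7, against 249 of 1299 and 450 of 1834 Havcr1-negative cells. The fit in proximal cells alone is given below. Both calls were lost without the day 4 library (Gclm 0.34, adjusted p = 0.125 and Fth1 0.22, adjusted p = 0.419, edgeR), without the first day 7 library (Gclm 0.35, adjusted p = 0.116 and Fth1 0.16, adjusted p = 0.567, edgeR) and without the second (Gclm 0.34, adjusted p = 0.13 and Fth1 0.18, adjusted p = 0.509, edgeR). Fth1 alone was lost without day 1 (0.27, adjusted p = 0.213, edgeR) or the second day 11 library (0.36, adjusted p = 0.0533, edgeR). Without the first day 11 library Ftl1 (0.27, adjusted p = 0.0475, edgeR) and Hmox1 (0.66, adjusted p = 0.0343, edgeR) passed too, and Hmox1 passed without the first (0.68, adjusted p = 0.0263, edgeR) or second (0.66, adjusted p = 0.0342, edgeR) day 14 library. Both were also lost on totals without mitochondrial genes (Gclm 0.37, adjusted p = 0.0594 and Fth1 0.22, adjusted p = 0.364, edgeR), with the loose gate (Gclm 0.37, adjusted p = 0.0555 and Fth1 0.22, adjusted p = 0.327, edgeR) and at no more than 25% mitochondrial UMIs per cell (Gclm 0.35, adjusted p = 0.0792 and Fth1 0.21, adjusted p = 0.377, edgeR), while on plain totals Ftl1 and Hmox1 passed as well, 4 members in all (28.6% of all genes). In proximal cells alone Gclm was 0.22 (adjusted p = 0.146, edgeR) and Fth1 -0.10 (adjusted p = 0.576, edgeR), and neither passed. The 1 member that passed there was Osgin1, as lower in Havcr1-positive cells (-0.68 ± 0.13, adjusted p = 0.000566, edgeR), against 16.0% of 12994 genes, and Ftl1 was at -0.26 (adjusted p = 0.106, edgeR).

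In immune cells both ferritin chains rose after injury. Immune cells were 62 in the control, 1043 and 1879 on day 7, and 113, 69, 47 and 55 in the libraries of days 11 and 14, so the low-count members could be tested only in part. Of the 10 members, 6 passed the filter on low counts, and Nqo1, Srxn1, Slc7a11 and Osgin1 did not. Fth1 was 3742 CPM in the control, 4701 at day 1, 5482 at day 2, 13223 at day 4, 10719 and 9618 at day 7, 10692 and 13119 at day 11, and 6884 and 10289 at day 14. On day 7 it was above the control (1.44 ± 0.36, adjusted p = 0.0106, edgeR), as on day 11 (1.67 ± 0.36, adjusted p = 0.00462, edgeR). Ftl1 was 796 CPM in the control, 1087 at day 1, 1658 at day 2, 2100.4 at day 4, 2324 and 1857 at day 7, 2524 and 3447 at day 11, and 1168 and 942 at day 14. It was higher than the control on day 7 (1.39 ± 0.37, adjusted p = 0.0170, edgeR) and day 11 (1.90 ± 0.38, adjusted p = 0.00135, edgeR). These were 2 of the 6 tested members on each day, against 4.79% of 4901 genes on day 7 (1.86% higher and 2.94% lower) and 5.14% on day 11 (2.45% higher). The 4 calls held in each of the 14 alternatives. The 7 myeloid genes together took 10228 CPM of the immune cells in the control, 9592, 9907 and 21659 CPM on days 1, 2 and 4, 26411 and 33053 CPM on day 7, 42488 and 47008 CPM on day 11 and 11875 and 15459 CPM on day 14. Like both ferritin chains, they were above the control from day 4 on. On days 1 and 2 they were below it, and the ferritin chains above. Kap and Gpx3 together took 4741 CPM of the same cells in the control, 1774, 1110.4 and 2312 CPM on days 1, 2 and 4, 616 and 281 CPM on day 7, 3356 and 5403 CPM on day 11 and 4849 and 4634 CPM on day 14. The sum does not show how each of the 2 genes changed. Haemoglobin mRNA took 75.9 CPM of the immune cells in the control, 1569 at day 1, 6.28 at day 2, 1561 at day 4, 1272 and 433 at day 7, 802 and 735 at day 11, and 195 and 131 at day 14. The 5 stress genes named above took 7269 CPM of them in the control, 2979 at day 1, 2300.2 at day 2, 2799.5 at day 4, 3992 and 4476 at day 7, 6579 and 6192 at day 11, and 4353 and 4634 at day 14, so the control was highest. The part of these genes, of the myeloid genes and of free tubular RNA in the ferritin values was not tested. On day 14 none of the 6 differed from the control (all genes 1.55%). Fth1 was then at 1.20 ± 0.36, adjusted p = 0.0859 by edgeR, and it passed in 6 of 14 alternatives, among them plain totals (1.41, adjusted p = 0.0208, edgeR) and the fits without the first (1.24, adjusted p = 0.00842, edgeR) or second (1.23, adjusted p = 0.0102, edgeR) day 7 library, and DESeq2 (1.24, adjusted p = 0.00831). Ftl1 fell from day 11 to day 14 (-1.50 ± 0.29, adjusted p = 0.000877, edgeR, 4.75% of genes called and 2.86% lower) and from day 7 to day 14 (-0.99 ± 0.28, adjusted p = 0.0304, edgeR, 4.08% called, 2.71% higher and 1.37% lower). The first call was lost without the second day 14 library (-1.43, adjusted p = 0.0944, edgeR). The second was lost without the first day 7 library (-0.83, adjusted p = 0.160, edgeR) and without the first (-1.13, adjusted p = 0.143, edgeR) or second (-0.91, adjusted p = 0.344, edgeR) day 14 library, with the strict gate (-1.05, adjusted p = 0.0798, edgeR) and with the replicate number as a block (-0.93, adjusted p = 0.0673, edgeR). Gclm rose from day 7 to day 11 (1.17 ± 0.30, adjusted p = 0.0110, edgeR, 6.20% called, 4.33% higher and 1.88% lower), a call lost without the second day 11 library (0.93, adjusted p = 0.280, edgeR) or the second day 7 library (1.04, adjusted p = 0.0845, edgeR), on plain totals (0.79, adjusted p = 0.0866, edgeR) and with no filter on low counts (0.99, adjusted p = 0.114, edgeR). Gclm passed as lower on day 14 than on day 11 without the first (-1.19, adjusted p = 0.0424, edgeR) or second (-1.20, adjusted p = 0.0377, edgeR) day 7 library.

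In the single libraries of days 1, 2 and 4, immune Fth1 was 1.26, 1.46 and 3.53 times the control and immune Ftl1 1.36, 2.08 and 2.64 times. Gclm was 1.65, 1.40 and 1.63 times and Txnrd1 2.64, 1.20 and 1.45 times. Of these 4 members with counts in the control, 2, 1 and 3 were at least 1.5-fold higher and none lower, against 27.5%, 27.7% and 27.5% of 4612 genes higher and 31%, 31.2% and 30.7% lower. On plain totals 4, 3 and 4 were higher, against 38.8%, 35.9% and 38.4% of genes. There is no test of these days. Hmox1 in immune cells was 0 CPM in the control, 20.5 at day 1, 71.2 at day 2, 65.2 at day 4, 51.8 and 40.8 at day 7, 36.8 and 43.2 at day 11, and 0 and 0 at day 14. No Hmox1 UMI was found in the control's or in either day 14 library's immune cells, where 3 counts would be 37.9, 53.1 and 39.3 CPM. Day 7 held 238 UMIs. Against a floor of 3 counts over the group, its level was 1.16 times the control's and 1.95 times that of day 14. This floor is a convention, so neither ratio is a lower bound on the fold. A difference of Hmox1 from the control was not detectable at this depth by the edgeR test (adjusted p = 0.175 on day 7). Gclc was 0 CPM in the control, 56.4 at day 1, 15.7 at day 2, 32.0 at day 4, 40.2 and 26.9 at day 7, 0 and 54 at day 11, and 0 and 13.1 at day 14, and Txnrd1 was 50.6 CPM in the control, 133 at day 1, 60.7 at day 2, 73.6 at day 4, 122 and 65.0 at day 7, 88.3 and 32.4 at day 11, and 0 and 52.4 at day 14. Neither passed in any comparison of days. Macrophages, as gated on C1qa, C1qb, C1qc, Csf1r, Adgre1, Cd68 and Mrc1, were 59.7% of the immune cells in the control, 24.4% at day 1, 52.8% at day 2, 63.8% at day 4, 79.6% and 74.3% at day 7, 69.0% and 73.9% at day 11, and 53.2% and 52.7% at day 14. The share was higher in each library of days 7 and 11 than in the others. Immune Fth1 was 13223 CPM in the day 4 library, at a share of 63.8%. It was close to that level in the second day 11 library, at a share of 73.9%. The part of the share in the ferritin values of all immune cells was not tested. Within macrophages Fth1 was 3787 CPM in the control, 5312 at day 1, 6421 at day 2, 15672 at day 4, 11710.1 and 12031 at day 7, 11634 and 13114 at day 11, and 6753 and 10248 at day 14, and Hmox1 reached 76.7 CPM on day 2. In lymphoid cells, of which days 2, 4 and 7 held enough, Fth1 was 1520.0 CPM at day 2, 2342 at day 4, and 3048 and 1804 at day 7. The TMM scale was set separately in macrophages, lymphoid cells and all immune cells, so levels were not compared between them.

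**Figure D4:**
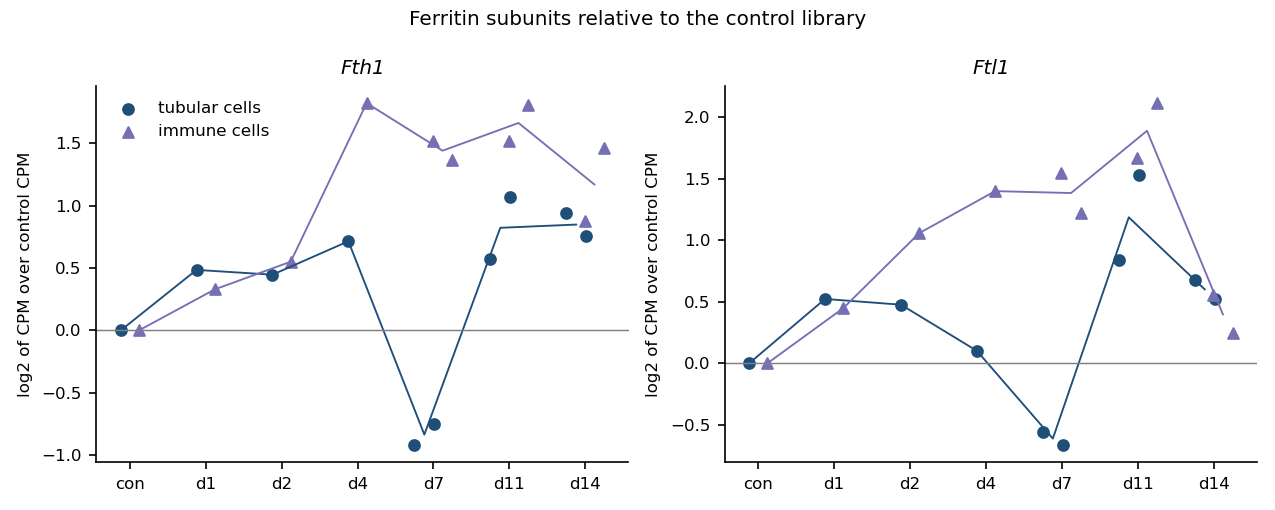
Fth1 and Ftl1 in tubular cells (circles) and immune cells (triangles), as log2 of the level over that of the control library of the same class, against the group. Points are libraries and lines join the mean of the log2 values of a group. On day 7 both tubular libraries lie below 0 and both immune libraries above 1 in both genes on this TMM scale, while on plain totals the tubular change of Ftl1 turned positive (0.17).

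Compared within a library on a shared scale, immune cells held more Hmox1, Ftl1 and Slc7a11 and less of 6 other members than tubular cells. Of the 10 members 9 differed, 3 higher (all genes 25.6%) and 6 lower (all genes 35.7%), against 61.3% of 14558 genes in either direction. Hmox1 was higher in immune cells in 7 of 10 libraries (1.79 ± 0.30, adjusted p = 6.00e-05, edgeR), the exceptions being the control and both day 14 libraries, where it had no UMI. On day 2 it was 73.2 CPM in immune and 16.0 CPM in tubular cells. The 7 myeloid genes named above took 9907 CPM in the immune and 221 CPM in the tubular cells of that library, and the part of free immune RNA in the tubular Hmox1 level was not tested. Slc7a11 (2.27 ± 0.50, adjusted p = 0.000760, edgeR) was likewise higher in 7 of 10, on 32 and 30 UMIs at day 7 and at most 6 in any other library's immune cells. Ftl1 was higher in 7 of 10 libraries (0.88 ± 0.25, adjusted p = 0.00493, edgeR), a call lost without the first day 7 library (0.47, adjusted p = 0.0896, edgeR). Fth1 was higher in 6 of 10 and did not pass (0.30 ± 0.24, adjusted p = 0.298, edgeR). Lower in immune cells were Nqo1 (-2.43 ± 0.42), Osgin1 (-2.30 ± 0.39), Gclc (-1.75 ± 0.32), Srxn1 (-1.34 ± 0.27) and Gclm (-0.67 ± 0.16), none higher in any library, and Txnrd1 (-0.64 ± 0.24) in 9 of 10. Txnrd1 lost its call without the control (-0.54, adjusted p = 0.0559, edgeR) or the second day 11 library (-0.57, adjusted p = 0.0529, edgeR). From the control to day 7 the change of both ferritin chains was more positive in immune than in tubular cells. On the shared scale Fth1 was 2829 CPM in the control and 10007 and 9630.5 at day 7 in immune cells and 4713 CPM in the control and 2563 and 2906 at day 7 in tubular cells. An interaction term gave a difference between the 2 changes of 2.60 ± 0.21, adjusted p = 2.83e-32 for Fth1 and 2.32 ± 0.30, adjusted p = 2.37e-12 for Ftl1 (edgeR, 4.45% of 15628 genes called, 2.32% higher and 2.14% lower, median of all genes 1.19). In this fit edgeR took 1 spread for all genes, so these p-values rest on the genes' common spread more than on 3 residual degrees of freedom. The difference for Fth1 ran from 1.80 to 2.99 and that for Ftl1 from 1.52 to 2.63 over 12 alternatives, plain totals included.

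Further genes of these pathways, listed by role, were counted in the same fits. Of 29 tested among 30 other genes that NRF2 is known to activate, 8 rose and 8 fell in tubular cells on day 7 against the control, with a median log2 change of -0.05 beside 0.03 over all genes tested, of which 16.1% rose and 17.8% fell. Malic enzyme Me1 (-3.00) and Entpd5 (-2.12) fell, and Trib3 (3.17) and the retinal dehydrogenase Aldh1a1 (2.52) rose. On plain totals 16 and 4 of the 29 were called higher and lower (all genes 47.1% and 6.81%), and in proximal cells alone 12 and 9 (all genes 19.8% and 20.7%), and these 4 kept their calls on both. From day 7 to day 14, 14 rose and 6 fell, against 24.3% and 21.7% of all genes (5 and 13 on plain totals, against 9.52% and 57.0%), with Me1 (2.74), Entpd5 (2.41) and catalase, Cat (2.24), higher and Trib3 (-2.88) lower. The counts in proximal cells alone were 10 higher and 9 lower, against 21.8% and 22.7% of all genes, and these 4 were still called there (1.93, 2.29, 1.78 and -3.02). Of the 10 regulators and partners of NRF2, Maff rose (2.80) and Cul3, the scaffold of the ligase that KEAP1 recruits, fell (-1.15) on day 7, whereas on plain totals 5 and 0 were called higher and lower and Cul3 did not pass (-0.37). Nfe2l2 mRNA fell from day 7 to day 11 (-1.42) and to day 14 (-1.05), on plain totals as well (-2.20 and -1.92). It was not called on day 7 against the control on the TMM scale. Loop, distal and collecting duct cells held more Nfe2l2 than proximal cells. They were 52.0% and 53.2% of tubular cells on day 7 and 16.9% to 20.2% on days 11 and 14. These falls are therefore of all tubular cells together. The 12 genes of glutathione and lipid peroxide defence included none that rose and 6 that fell on day 7. Gamma-glutamyl transferase Ggt1 (-3.26), glutathione synthetase Gss (-1.52), Gpx3 (-1.38) and Gpx4 (-1.14), which reduces lipid peroxides, were among them. On plain totals 4 and 2 of the 12 were called higher and lower, with Ggt1 (-2.48) and Gss (-0.74) still lower and Gpx3 (-0.60) and Gpx4 (-0.36) not called. In proximal cells alone 2 and 6 were called higher and lower. On day 14 against day 7, 10 of the 12 rose and 2 fell (4 and 2 on plain totals, 9 and 1 in proximal cells alone), with Ggt1 at 3.37, Gpx3 at 2.79, Gss at 2.11 and Chac1, which degrades glutathione, at -3.27.

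Of 14 iron genes tested of 15, 4 rose and 5 fell in tubular cells on day 7. The siderophore binder Lcn2 (7.99), the ferroxidase ceruloplasmin, Cp (5.0), and transferrin, Trf (3.63), rose, and the transferrin receptor Tfrc (-3.27) fell. From day 7 to day 14 these 4 went the other way, at -6.34, -5.56, -4.04 and 3.15, and they kept these directions on plain totals, where 7 and 2 iron genes were called higher and lower on day 7 (4 and 5 in proximal cells alone). Trf was also higher in immune than in tubular cells (6.68), and the 7 myeloid genes stood at 7.48 CPM in the control's tubular cells and at 635 CPM or more on day 7, and their part in the Trf and Lrp1 values was not tested. Of 9 haem genes tested of 12, 1 rose (Lrp1, 2.09) and 2 fell on day 7, namely ferrochelatase, Fech (-0.97), and biliverdin reductase, Blvra (-0.84). On plain totals Fech (-0.19) and Blvra (-0.06) did not pass, and 3 and 0 haem genes were called higher and lower. The counts were 0 and 2 in proximal cells alone, with Lrp1 not called (1.55, adjusted p = 0.0761, edgeR). On day 14 against day 7, 6 rose and 1 fell (2 and 3 on plain totals, 5 and 1 in proximal cells alone). The ATF4 list of 12 genes, Atf4 itself included, held 3 that rose and 3 that fell on day 7 (7 and 2 on plain totals, 5 and 3 in proximal cells alone). Trib3, named above among the other NRF2 targets, is in this list too and rose. Asns (2.58) and Phgdh (2.54) were also higher, and Shmt2 (-2.11) was lower. ATF4 also drives Slc7a11. Trib3, Sqstm1, Slc3a2 and Chac1 are shared between lists, so the counts of the lists are not independent. Between segments, 17 of 29 other NRF2 targets were lower and 7 higher in loop, distal and collecting duct cells than in proximal cells, against 33.1% of all genes lower and 29.5% higher. Me1 (-4.24) and the isocitrate dehydrogenase Idh1 (-3.16) were lower, and the microsomal glutathione transferase Mgst1 (3.29) and the exporter Abcc1 (2.96) higher. Nfe2l2 itself was higher there (1.54). In immune against tubular cells 5 of the 29 were higher and 17 lower, against 25.6% and 35.7% of all genes, with Me1 (-3.43) among the latter. Bach1, the repressor that haem displaces, was higher in immune cells (1.95), as were Lrp1 (5.16) and the haemoglobin scavenger receptor Cd163 (3.59). The shares of all genes given above for a comparison hold for each list counted in it. These counts describe the lists, and no list was tested against other genes.

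Across the 10 tubular libraries, which share scaling and days, the pattern of log2 CPM of Osgin1 was most like that of Skp1a (r = 0.987), that of Nqo1 most like Psmb5 (r = 0.986), that of Gclm most like 1810009A15Rik (r = 0.977) and that of Fth1 most like Chmp1a (r = 0.977), among 4416 or 4417 genes. For Ftl1 it was Gm10116, whose sequence was not compared with that of Ftl1 (r = 0.995), and for Hmox1, whose pattern had the weakest match, Rps12-ps3 (r = 0.855). Among the members themselves Nqo1 and Osgin1 (r = 0.923), Nqo1 and Gclm (r = 0.923) and Fth1 and Ftl1 (r = 0.886) were most alike over the 10 libraries. The 2 subunits of glutamate-cysteine ligase were less so (Gclc and Gclm, r = 0.344), and Slc7a11 ran against Osgin1 (r = -0.846). These values describe 10 libraries and carry no test. Ftl1 has 7 annotated copies at least 95% identical over at least 200 bases, none of them listed in the tables, and how the counting placed reads shared with them is not given in the sources used here. Gclm overlaps Gm17494 on the opposite strand, which the tables list, and the strand used in counting is not given in the sources used here, so reads of the 2 could not be told apart.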

How the data were processed

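Per the labels' protocols, the authors made Drop-seq libraries from kidney cortex suspensions. The submitters' processing notes name Bowtie2 2.2.7 and mm10, and the annotation, filters and counting strand are not given in the sources used here. The deposited values are counts per gene and cell barcode, whole numbers read here as UMIs although no label says so. They sum to 173806985, from 7091848 to 31632205 per library. Any 2 libraries shared at most 11 barcodes. The tables list barcodes of at least 500 genes, except both of day 11, which go down to 300.

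A barcode counted as a cell with 500 or more UMIs, 500 or more genes and a mitochondrial share up to 50%. The gene minimum took out 5362 and 5424 barcodes from day 11, and the mitochondrial limit 611 from the control. A cell was tubular or immune with at least 3 UMIs from at least 2 of 37 or 10 marker genes and the markers of all other classes together below 50% of that sum. A strict gate asked for 5 UMIs from 3 genes and others below 25%, a loose gate for 2 UMIs from 1 gene and others below 100%. The main gate also removes cells with strong markers of 2 classes, and no doublet caller was run. Proximal or other segments needed 2 UMIs of segment markers and more than the other list.

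Counts were summed per library and class and tested with edgeR 4.0.16 in R 4.3.3 (TMM, filterByExpr, quasi-likelihood F test, Benjamini-Hochberg over all genes tested), all groups in 1 fit by day, or library as a block between classes. The 2 libraries of days 7, 11 and 14 gave the spread. edgeR draws the spread of each gene toward that of the other genes. The prior degrees of freedom were 7.22 in tubular and 35.1 in immune cells by day, beside 3 residual. The immune p-values by day thus rest mostly on spread shared between genes. Levels carry exact 95% Poisson intervals of the summed counts, which cover counting error only. DESeq2 1.42.0, plain totals, other gates and filters, and each library left out were the alternatives, and plain totals on days 1, 2 and 4 were added after seeing the data. Tables were read and drawn with Python 3.11.15. The fits were tested on simulated data. Between the 2 libraries of a day, counts differed by more than sampling noise (chi-square per degree of freedom from 1.99 to 26.5). All 10 genes are named in each class, with at most 4 called genes per pathway list and comparison, those of largest absolute log2 change. 1 tubular marker is not reported here. The members and lists were chosen with earlier results of these data known.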

Additional observations from a re-analysis of the deposited data

Results flagged for a closer look

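The change from the control to day 7 differed between immune and tubular cells in 3 members, by an interaction term in edgeR's quasi-likelihood model, against 4.45% of 15628 genes (2.32% higher and 2.14% lower). The median of this difference over all genes was 1.19 on the log2 scale, so the values below are to be read against it. For Fth1 the immune change minus the tubular change was 2.60 on the log2 scale (SE 0.21, adjusted p = 2.83e-32, edgeR), with both immune day 7 libraries above and both tubular day 7 libraries below their control. For Ftl1 it was 2.32 (SE 0.30, adjusted p = 2.37e-12, edgeR). For Gclc it was 12.06 (adjusted p = 0.0184, edgeR). Its immune cells in the control held no UMI, so that the fitted value depends on the prior count and is no fold, and it passed in 9 of 12 alternatives. These 3 p-values test a difference of 0, not of 1.19. They rest on 1 spread common to all genes and on 1 control library with 62 immune cells. No group holds 4 or more libraries, so no library was examined as a possible outlier within its group.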

How the results depend on the processing

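Of 52 values called in the report, 29 kept their direction and their side of the threshold in every alternative run for them, and 3 changed sign in at least 1. They were Hmox1 for tubular day 11 against day 7, Gclc for tubular day 14 against day 7 and Fth1 for Havcr1-positive against negative cells. The cause of each change below was not tested, beyond what the setting itself removes. In the lists that follow, a count is the number of members that passed the threshold, with the share of all genes tested that passed in the same setting in parentheses, and a value is a log2 change whose sign turned. On plain library totals the count was 1 (11.4%) for tubular day 14 against day 11, 1 (1.55%) for immune day 14 against control, 0 (8.65%) for immune day 11 against day 7 and 4 (28.6%) for Havcr1-positive against negative cells. On plain library totals the number of members at least 1.5-fold above the control was 5 (46.0%) for tubular day 1, 5 (41.2%) for tubular day 2, 4 (38.8%) for immune day 1 and 3 (35.9%) for immune day 2. On plain library totals the sign turned for Ftl1 (0.17), Gclm (0.42), Hmox1 (0.23) and Txnrd1 (0.24) in tubular day 7 against control, Srxn1 (-0.030) in tubular day 14 against control, Gclc (-0.42), Hmox1 (-0.086) and Txnrd1 (-0.68) in tubular day 11 against day 7, Gclc (-0.044) and Txnrd1 (-0.70) in tubular day 14 against day 7, Fth1 (-0.078) and Txnrd1 (-0.022) in tubular day 14 against day 11, Fth1 (-0.15) in immune day 11 against day 7, Gclc (0.085) and Txnrd1 (0.019) in other segments against proximal cells, Srxn1 (0.0081) and Txnrd1 (0.026) in Havcr1-positive against negative cells, Srxn1 (-0.31) in the difference between the immune and tubular changes to day 7. With DESeq2 the count was 2 (5.99%) for tubular day 14 against control, 1 (9.91%) for tubular day 14 against day 11 and 1 (1%) for immune day 14 against control. With DESeq2 the sign turned for Srxn1 (-0.015) in tubular day 14 against control, Fth1 (-0.030) in tubular day 14 against day 11, Gclm (0.019) in immune day 14 against day 7. In all cells with no gate the sign turned for Ftl1 (0.19), Hmox1 (0.47) and Srxn1 (-0.053) in tubular day 7 against control, Hmox1 (-0.32) in tubular day 11 against day 7, Srxn1 (0.14) in tubular day 14 against day 7. With the loose gate the count was 2 (4.14%) for immune day 14 against day 7, 2 (3.90%) for immune day 14 against day 11, 0 (23.5%) for Havcr1-positive against negative cells and 5 (5.70%) for the difference between the immune and tubular changes to day 7. With the loose gate the number of members at least 1.5-fold above the control was 3 (28.4%) for immune day 2. With the loose gate the sign turned for Txnrd1 (0.24) in immune day 14 against control, Osgin1 (-0.011) in Havcr1-positive against negative cells, Srxn1 (-0.15) in the difference between the immune and tubular changes to day 7. With the strict gate the count was 0 (2.87%) for immune day 14 against day 7. With the strict gate the number of members at least 1.5-fold above the control was 3 (31.4%) for immune day 2. With the strict gate the sign turned for Fth1 (-0.0061) in tubular day 14 against day 11, Txnrd1 (0.49) in immune day 14 against control, Gclm (0.36) in immune day 14 against day 7, Srxn1 (-0.37) in the difference between the immune and tubular changes to day 7. At no more than 25% mitochondrial UMIs per cell the count was 0 (13.2%) for tubular day 14 against day 11 and 0 (22.2%) for Havcr1-positive against negative cells. At no more than 25% mitochondrial UMIs per cell the sign turned for Hmox1 (-0.19) in tubular day 11 against control, Slc7a11 (0.099) in tubular day 14 against control, Hmox1 (0.043) in tubular day 14 against day 7, Osgin1 (-0.10) in Havcr1-positive against negative cells. With no filter on low counts the count was 2 (8.54%) for tubular day 14 against control, 1 (0.347%) for immune day 14 against control and 0 (1.20%) for immune day 11 against day 7. With no filter on low counts the sign turned for Srxn1 (-0.036) in tubular day 14 against control. With only the libraries of the 2 groups compared the count was 6 (25.2%) for tubular day 14 against control and 1 (3.58%) for immune day 14 against control. With only the libraries of the 2 groups compared the sign turned for Srxn1 (-0.021) in tubular day 14 against control, Fth1 (-0.058) and Txnrd1 (-0.00053) in tubular day 14 against day 11. In proximal cells alone the count was 8 (40.5%) for tubular day 7 against control, 2 (7.26%) for tubular day 14 against control, 1 (11.2%) for tubular day 14 against day 11 and 1 (16.0%) for Havcr1-positive against negative cells. In proximal cells alone the sign turned for Hmox1 (-0.26) in tubular day 11 against control, Nqo1 (-0.010) in tubular day 14 against control, Fth1 (-0.075) and Txnrd1 (-0.045) in tubular day 14 against day 11, Fth1 (-0.10), Ftl1 (-0.26), Hmox1 (-0.11), Osgin1 (-0.68) and Srxn1 (0.037) in Havcr1-positive against negative cells. On totals without mitochondrial genes the count was 0 (23.4%) for Havcr1-positive against negative cells. On totals without mitochondrial genes the sign turned for Osgin1 (-0.020) in Havcr1-positive against negative cells. With 1 library left out in turn, the count ran from 3 to 6 (31% to 33.3%) for tubular day 7 against control, 1 to 7 (4.92% to 26.1%) for tubular day 11 against control, 0 to 2 (1.35% to 14.9%) for tubular day 14 against control, 0 to 3 (3.25% to 17.7%) for tubular day 14 against day 11, 0 to 1 (0.245% to 2.45%) for immune day 14 against control, 0 to 1 (1.94% to 6.80%) for immune day 11 against day 7, 0 to 2 (0.735% to 4.69%) for immune day 14 against day 7, 0 to 2 (0.622% to 6.47%) for immune day 14 against day 11 and 0 to 4 (18.4% to 29.3%) for Havcr1-positive against negative cells. The values whose sign turned in this way ran from -1.10 to 0.015 for Slc7a11 in tubular day 14 against control, -0.020 to 0.21 for Txnrd1 in tubular day 11 against day 7, -0.22 to 0.28 for Fth1 in tubular day 14 against day 11, -0.041 to 0.19 for Txnrd1 in tubular day 14 against day 11, -0.56 to 0.92 for Txnrd1 in immune day 11 against control and -8.49 to 0.13 for Txnrd1 in immune day 14 against control. The others ran from -7.96 to 0.70 for Gclc in immune day 11 against day 7, -0.16 to 0.13 for Gclm in immune day 14 against day 7, -0.63 to 0.031 for Fth1 in immune day 14 against day 7, -7.42 to 5.81 for Gclc in immune day 14 against day 11, -0.13 to 0.42 for Fth1 in immune against tubular cells, -0.28 to 0.0026 for Gclc in other segments against proximal cells and -0.11 to 0.11 for Osgin1 in Havcr1-positive against negative cells, and the wide ranges of Gclc and Txnrd1 come with groups that have no count, where the fitted value depends on the prior count. A setting with no library left of the only control could not be run for comparisons with it.

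No pairing of libraries by replicate number was seen, as the correlation of same-numbered deviations from the group means was -0.041 to 0.082 over 3 pairs of days in 2 classes. The labels give no animal or batch, so a pairing could not be checked against them. With the replicate number as a block, 7, 7 and 2 members passed in tubular cells for day 11 against 7, day 14 against 7 and day 14 against 11 (all genes 50.2%, 50.9% and 14.8%), and 1, 0 and 1 in immune cells (8.36%, 5.10% and 6.66%). Under the block the sign turned for Fth1 (-0.015) in tubular day 14 against day 11 and Gclm (0.035) in immune day 14 against day 7.

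Depth and library number limit these data. In simulated counts over 16521 genes, 28 of 100 genes changed 2-fold and 73 of 100 changed 4-fold were recovered for tubular cells on day 7 against the control. For immune cells, over 4901 genes, 8 and 39 of 100 were. In these simulations 17 unchanged genes (0.104%) were called for tubular cells and 2 (0.0425%) for immune cells. Between classes, unchanged genes called were 20 (0.139%) for immune against tubular cells and 7 (0.0493%) for other segments against proximal cells. They were 20 (0.145%) for Havcr1-positive against negative cells. False calls thus stood beside the recovered genes in each simulated fit. No Hmox1 UMI was found in the immune cells of the control or day 14, and Slc7a11 rests on few UMIs in each class.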

Other observations

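In the single libraries of days 1, 2 and 4, the lists around the members were described without a test. Of the 29 other NRF2 targets in tubular cells, 7, 8 and 13 were at least 1.5-fold above the control and 8, 4 and 6 at least 1.5-fold below it, with median folds of 0.865, 1.15 and 1.27. Of all 16339 genes with a fold, 28.4%, 25.8% and 25.6% were above and 25%, 21.7% and 26.2% below. These counts depend on the scaling. On plain library totals 14, 15 and 20 of the 29 were above and 4, 2 and 1 below, with median folds of 1.22, 1.52 and 1.82, so that the day 1 median changed side of the control level, against 46.0%, 41.2% and 45.3% of all genes above and 12.8%, 11.3% and 12.4% below. Of the 12 genes of glutathione and lipid peroxide defence, 1, 2 and 2 were above and 5, 3 and 1 below on the TMM scale, and 4, 4 and 7 above and 2, 1 and 1 below on plain totals. Of the 12 ATF4 targets, 5, 6 and 6 were above and 4, 3 and 2 below on the TMM scale, and 6, 6 and 8 above and 2, 0 and 0 below on plain totals. In immune cells, 12 of the other NRF2 targets had counts to compare, of which 8, 6 and 9 were above and 2, 2 and 0 below, with median folds of 1.74, 1.73 and 2.40, against 27.5%, 27.7% and 27.5% of 4612 genes above and 31%, 31.2% and 30.7% below. On plain totals 9, 7 and 10 of the 12 were above and 1, 1 and 0 below, with median folds of 2.16, 2.08 and 3.01, against 38.8%, 35.9% and 38.4% of genes above and 22.1%, 24.0% and 21.2% below. Abcc4, which encodes an exporter of organic anions, was 3.08, 2.77 and 3.42 times the control in tubular cells on these 3 days (4.34, 3.65 and 4.87 times on plain totals), and was named after its values were seen.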
